A study of Bos taurus with 106 samples.

Results

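The livers of Holstein dairy cows sampled 14 days before calving were compared between 2 levels of feed intake. The comparison used 16 of the 106 arrays of the series, chosen by the labelled sampling day alone: 8 arrays from 4 cows fed ad libitum and 8 arrays from 4 cows fed a restricted amount. Ad libitum cows ate as much as they wanted of a moderate-energy diet and took in about 120% of the NRC requirement. Restricted cows were held to about 80% of it, and each diet was given through a dry period of 65 days. The labels give 1.60 Mcal/kg for this diet. All cows were pregnant and not lactating on this day, so the comparison is between 2 intakes and holds no cow fed at requirement.

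The last weeks of pregnancy in a dairy cow bring a growing demand of the fetus for glucose and amino acids, and often a fall in appetite. When intake does not meet the demand, fat is mobilised and the liver takes up the fatty acids, which it can burn by beta-oxidation, turn into ketone bodies or store as triglyceride. The liver also makes most of the complement and other plasma proteins, and it houses many macrophages, called Kupffer cells, and lymphocytes.

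Each liver cDNA was hybridised to spotted cDNA arrays against a pool of RNA from several tissues other than liver, which served as the reference. A value is therefore a log2 ratio of liver over that reference, where 0 means the same ratio as the median element of the array, and values of different genes cannot be ranked as amounts of RNA. Every cow was measured in both dye orientations, and their mean is the cow's single value (n = 4 per diet throughout). Spot intensities are not given in the sources used here, so the precision rests on the number of cows. Differences are ad libitum minus restricted. Values per cow are given in the order of cows 6886, 7050, 7161 and 7187 for ad libitum and 6877, 6952, 7045 and 7105 for restricted. Nothing in the labels ties cows to blocks, and p-values measure the spread between these animals only.

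The restricted cows differed among themselves more than the ad libitum cows did. The median over elements of the SD between cows was 0.271 in the ad libitum and 0.438 in the restricted cows at day -14, whereas it was 0.188 in the ad libitum and 0.187 in the restricted cows at day -30. An ad libitum cow correlated with the other cows of its diet at r = 0.816 to 0.828 (mean over 3 cows, 8174 elements). A restricted cow did so at r = 0.589 to 0.735, and each of the 4 restricted cows correlated more closely with the ad libitum cows (0.704 to 0.809) than with its own group. Restricted cow 6877 had the lowest mean correlation, and the results below are also given without it where they move.

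The spread of values within a cow differed as well. The SD over elements was 0.921 ± 0.036 in the ad libitum and 1.12 ± 0.11 in the restricted cows (SD, n = 4), and the cows of the diets did not overlap (exact permutation p = 0.0286, two-sided, the smallest that 4 against 4 cows allow, adjusted p = 0.114 over 8 array measures). Both dye orientations of a cow correlated at 0.466 ± 0.171 in ad libitum and 0.595 ± 0.091 in restricted cows (SD, n = 4, exact permutation p = 0.229, adjusted p = 0.261). At day -30 they averaged 0.640 ± 0.036 for ad libitum and 0.734 ± 0.053 for restricted cows (SD, n = 4). The lowest agreement on day -14 was that of ad libitum cow 6886, at 0.225. Elements with a high mean liver ratio on days -65, -30, 28 and 49 lay slightly lower in ad libitum cows. The median difference was -0.11 among the 1642 elements of highest ratio and 0.02 among the 1642 of lowest ratio. The part of this unequal spread in the gene differences below was not tested, but list medians after scaling the arrays to a common spread are given beside them.

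**Figure D1:**
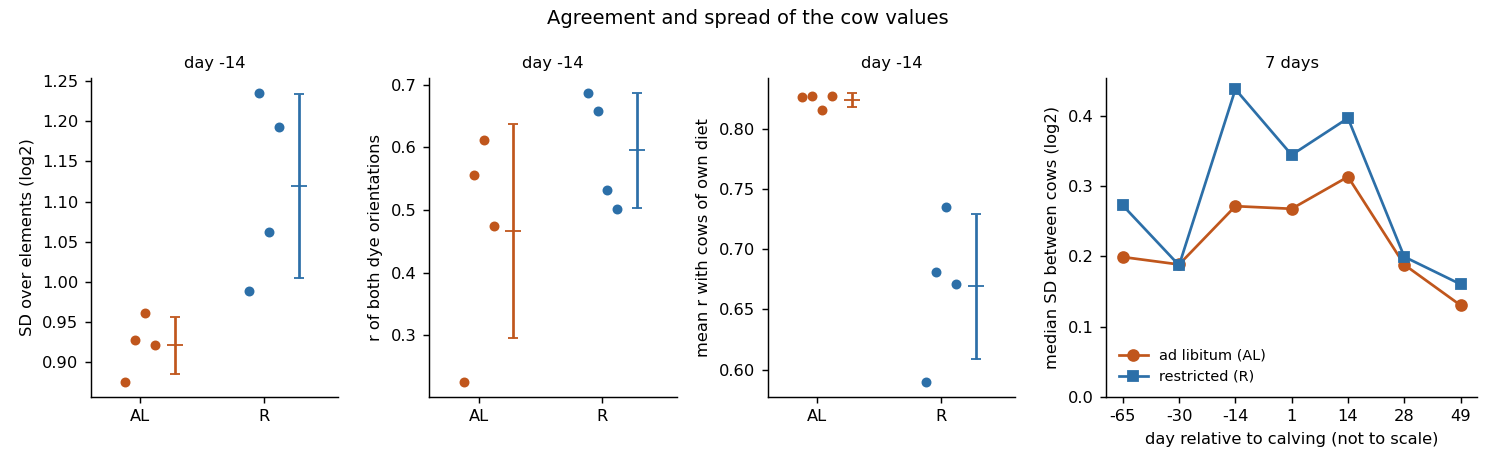
Agreement and spread of the cow values. From left to right, the SD of the log2 values over elements, the correlation of both dye orientations and the mean correlation with cows of the same diet are shown for each cow at day -14 (AL, ad libitum; R, restricted; points are cows, bars mean ± SD), and the last panel gives the median over elements of the SD between cows on each sampling day. Restricted cows have the wider spread of values and agree less with one another (0.589 to 0.735) than ad libitum cows do (0.816 to 0.828), and at day -14 the median SD between cows is 0.271 in ad libitum and 0.438 in restricted cows.

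The central question was which liver transcripts differed between the intakes 14 days before calving. No element passed: limma with Benjamini-Hochberg adjustment over 8208 elements called 0 (0% called), and the smallest adjusted p was 0.414. At an unadjusted p under 0.05 there were 593 elements lower in ad libitum cows (7.22% called) and 246 higher (3% called). Without centring of the arrays, which put the median of all elements at -0.23, there were 783 such elements, of which 29 were higher. Among 8174 elements with a value in all 8 cows, 427 had every ad libitum cow below every restricted cow (5.22% called), and 159 had every ad libitum cow above (1.95% called). Without restricted cow 6877 the number at an unadjusted p under 0.05 was 1844, of which 963 were higher in ad libitum cows, and 0 elements passed (smallest adjusted p = 0.152). Without ad libitum cow 6886 or 7050 the numbers were 507 and 469.

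Because the cows were sampled repeatedly, the diets were also compared in a single fit of all 14 groups of diet and day with the cow as a replicate block. It held 3 ad libitum cows on day -65, 2 on day 49 and 4 cows in every other group. This fit called 485 of 8204 elements at day -14 (smallest adjusted p = 0.00196), 411 lower in ad libitum cows (5.01% called) and 74 higher (0.902% called). It takes 1 spread per element from all days, while the median pooled SD between cows was 0.380 at day -14 and 0.161 to 0.380 over the 7 days. For 5995 of the 8204 elements the SD between cows at day -14 was larger than the SD over all 14 groups, so the calls rest on a smaller spread than these cows showed there. Both results are given below: "passed in the fit of all days" refers to this fit, and no gene passed in the cows of day -14 alone.

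Among the 8 genes with the smallest p that lay higher in ad libitum cows, CDAN1 had the largest mean difference. Codanin 1, its product, takes part in red cell development and histone supply. It was at 2.17, 1.90, 2.69 and 2.88 in ad libitum cows, against -0.41, 1.37, -0.13 and 0.52 in restricted cows, a difference of 2.07 ± 0.40 (SE, adjusted p = 0.414, and 0.00721 in the fit of all days). All 4 ad libitum cows lay above all 4 restricted cows. The difference was 1.87 on day -65, at the start of the dry period, and 0.07 at day -30.

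IDI1, the isomerase that makes dimethylallyl diphosphate for sterol and isoprenoid synthesis, was at 0.76, 1.14, 1.96 and 1.46 in ad libitum cows, against -0.60, 0.18, -0.25 and 0.26 in restricted cows. The difference was 1.43 ± 0.30 (SE, adjusted p = 0.414, and 0.0385 in the fit of all days), against -0.31 at day -30. A second IDI1 element had a difference of -0.60, so the 2 elements of this gene had opposite signs. PCLAF, a PCNA-binding factor of dividing cells, had low ratios in every cow, at -3.31, -3.08, -3.46 and -3.00 in ad libitum cows, against -4.53, -4.03, -3.89 and -4.45 in restricted cows, with the ad libitum cows above the restricted ones.

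BOD1L1, a protector of stalled replication forks, was at 0.17, -0.08, -0.02 and -0.14 in ad libitum cows, against -0.98, -0.69, -0.91 and -0.90 in restricted cows. BCAP29, an endoplasmic reticulum membrane protein, differed by 1.12 ± 0.23 (SE), and U2SURP, a splicing-associated protein, by 0.87 ± 0.20 (SE). SYNCRIP, an RNA-binding hnRNP protein, differed by 0.76 ± 0.18 (SE), and of its 4 elements 1 lay at -0.89, the opposite sign. KIAA2013 differed by 1.72 ± 0.38 (SE), with a second element at -0.68. In each of these 8 genes the element named had no overlap between the diets, and all had an adjusted p of 0.414. Of all elements, 1.95% had every ad libitum cow above every restricted cow. The opposite elements of SYNCRIP and KIAA2013 had no overlap either, with every ad libitum cow below every restricted cow and the same adjusted p. By the rule for gene lists, the element at -0.68 represents KIAA2013, so the direction of these genes was not settled.

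LASP1, an actin-binding protein, had the smallest p among the genes lower in ad libitum cows. It was at -0.04, -0.67, -0.40 and -0.77 in ad libitum cows, against 0.76, 0.32, 0.80 and 0.93 in restricted cows, a difference of -1.17 ± 0.23 (SE, adjusted p = 0.414, and 0.028 in the fit of all days). Its second element differed by only -0.05. PAG12 carries the name of a family of pregnancy-associated glycoproteins made by the trophoblast, whose members are alike in sequence and may share signal on a cDNA array. The element was at -0.10, -0.01, -0.06 and 0.20 in ad libitum cows, against 0.91, 0.78, 0.78 and 0.98 in restricted cows, with small spread in both diets and a gap between them (0.00196 for the adjusted p in the fit of all days). Under the 20 other settings the PAG12 difference ran from -1.29 to -0.42. Over the 13 measured placental and mammary genes the median difference was -0.17. PAG12 was the 1 of 13 that passed in the fit of all days, where 5.01% of all elements passed as lower. Relative to the median of all elements, the list median was -0.36 with the liver in Cy5 alone and 0.08 with the liver in Cy3 alone.

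CD3E, a signalling chain of the T cell receptor complex, was at 0.88, 1.10, 1.21 and 1.35 in ad libitum cows, against 1.70, 2.06, 2.24 and 2.49 in restricted cows. QSOX1, which forms disulphide bonds in secreted proteins, was at 0.12, -0.18, 0.67 and 0.56 in ad libitum cows, against 1.44, 1.5, 1.45 and 1.02 in restricted cows. EFNA1, a membrane-bound ligand of Eph receptors that is induced by cytokines, was at 1.33, 1.13, 1.97 and 2.07 in ad libitum cows, against 2.70, 3.6, 3.25 and 2.44 in restricted cows. Every ad libitum cow lay below every restricted cow for all of these, as for 5.22% of all elements. GMPPA (-0.84 ± 0.18, SE), a regulator of GDP-mannose synthesis for glycosylation, CTDSP2 (-1.01 ± 0.24, SE), a small phosphatase acting on RNA polymerase II, and SLX1A (-1.10 ± 0.26, SE), a DNA repair nuclease subunit, completed the 8. The other SLX1A element differed by -0.30, with overlap. Of the 16 genes named here, 13 passed in the fit of all days, and KIAA2013, U2SURP and SYNCRIP did not. Of all elements, 5.01% passed there as lower and 0.902% as higher. The differences of all 16 named elements kept their sign under each of the 20 other settings, those without single cows included. The 16 were chosen for the smallest p in these same day -14 values, which enter every setting. Neither these counts nor the lack of overlap between the diets is therefore separate support.

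**Figure D2:**
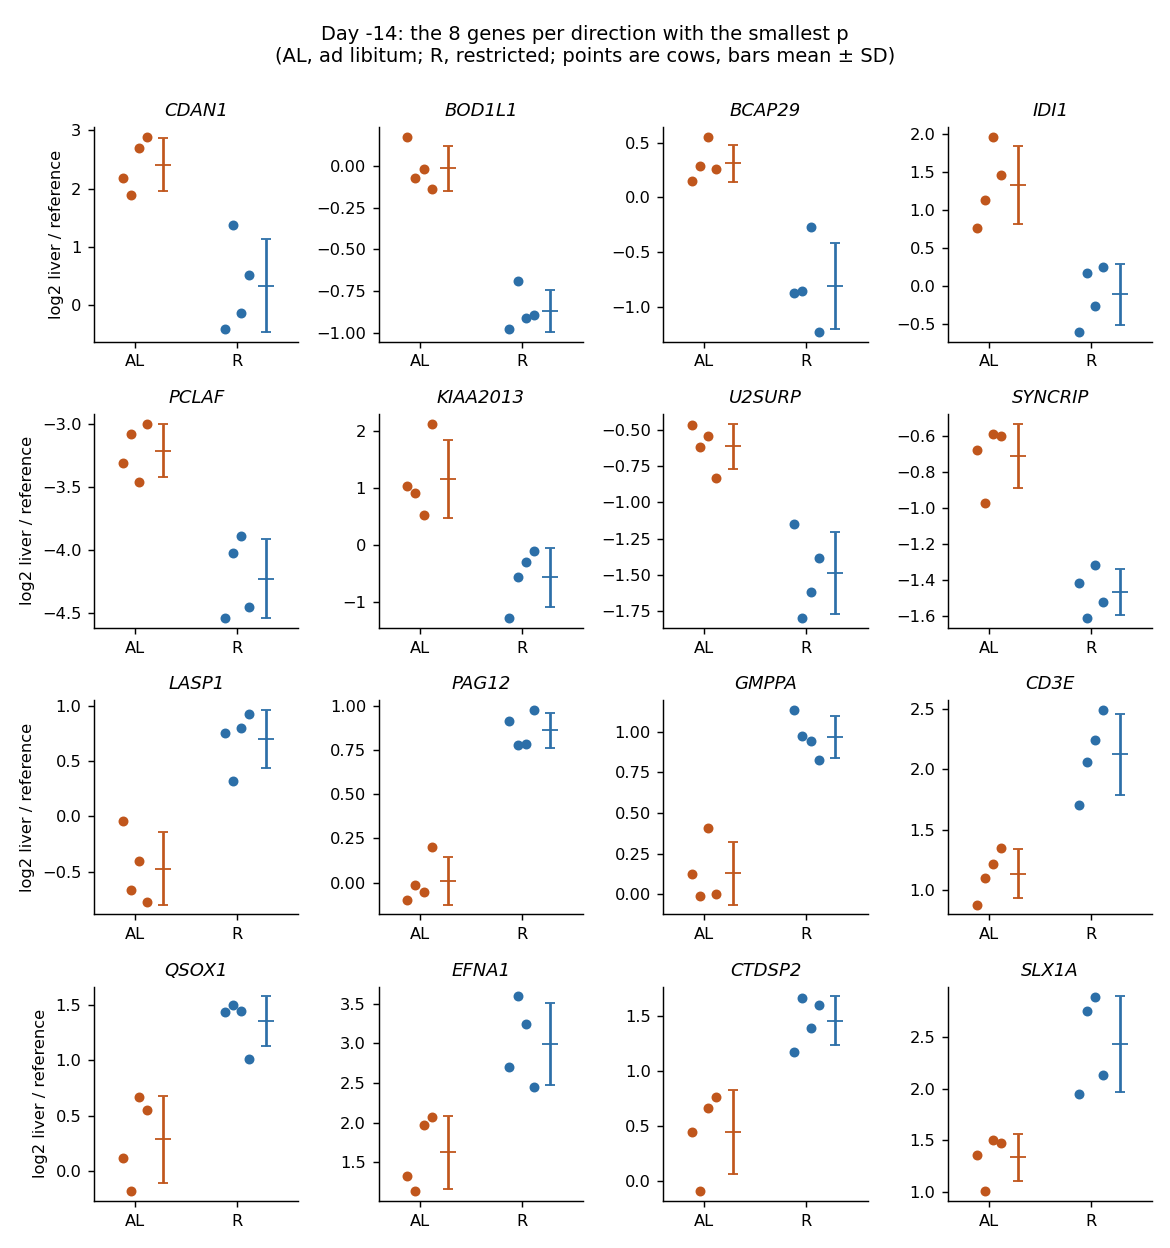
The 8 genes with the smallest p in each direction at day -14. Each panel plots the log2 ratio of liver over reference for the ad libitum cows (AL, left) and the restricted cows (R, right), with bars for the mean ± SD of 4 cows; the upper 8 genes lay higher in ad libitum cows and the lower 8 lay lower. The groups do not overlap in any panel, and the adjusted p is 0.414 in all of them. The genes were chosen for the smallest p in these same cows, so the lack of overlap is not separate support. Of all elements with complete values, 1.95% had every ad libitum cow above every restricted cow and 5.22% had every one below.

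Of 34 gene lists with at least 5 measured genes, 23 had a median difference below 0, and none of their members passed in the cows of day -14 alone. The median over all 8208 elements was 0.0045, with 4077 below 0. The lowest list medians were those of complement (-0.71), T and NK cell markers (-0.59), fatty acid oxidation (-0.50), Kupffer cell and macrophage markers (-0.45) and cytosolic ribosomal proteins (-0.41). Without restricted cow 6877 the medians were -0.71 for complement, -0.72 for T and NK cell markers, -0.58 for fatty acid oxidation, -0.44 for Kupffer cell markers and -0.37 for ribosomal proteins. The highest were those of cytochrome P450 and conjugation genes (0.26) and of gluconeogenesis and pyruvate fate (0.25), which without cow 6877 were 0.047 and 0.25.

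**Figure D3:**
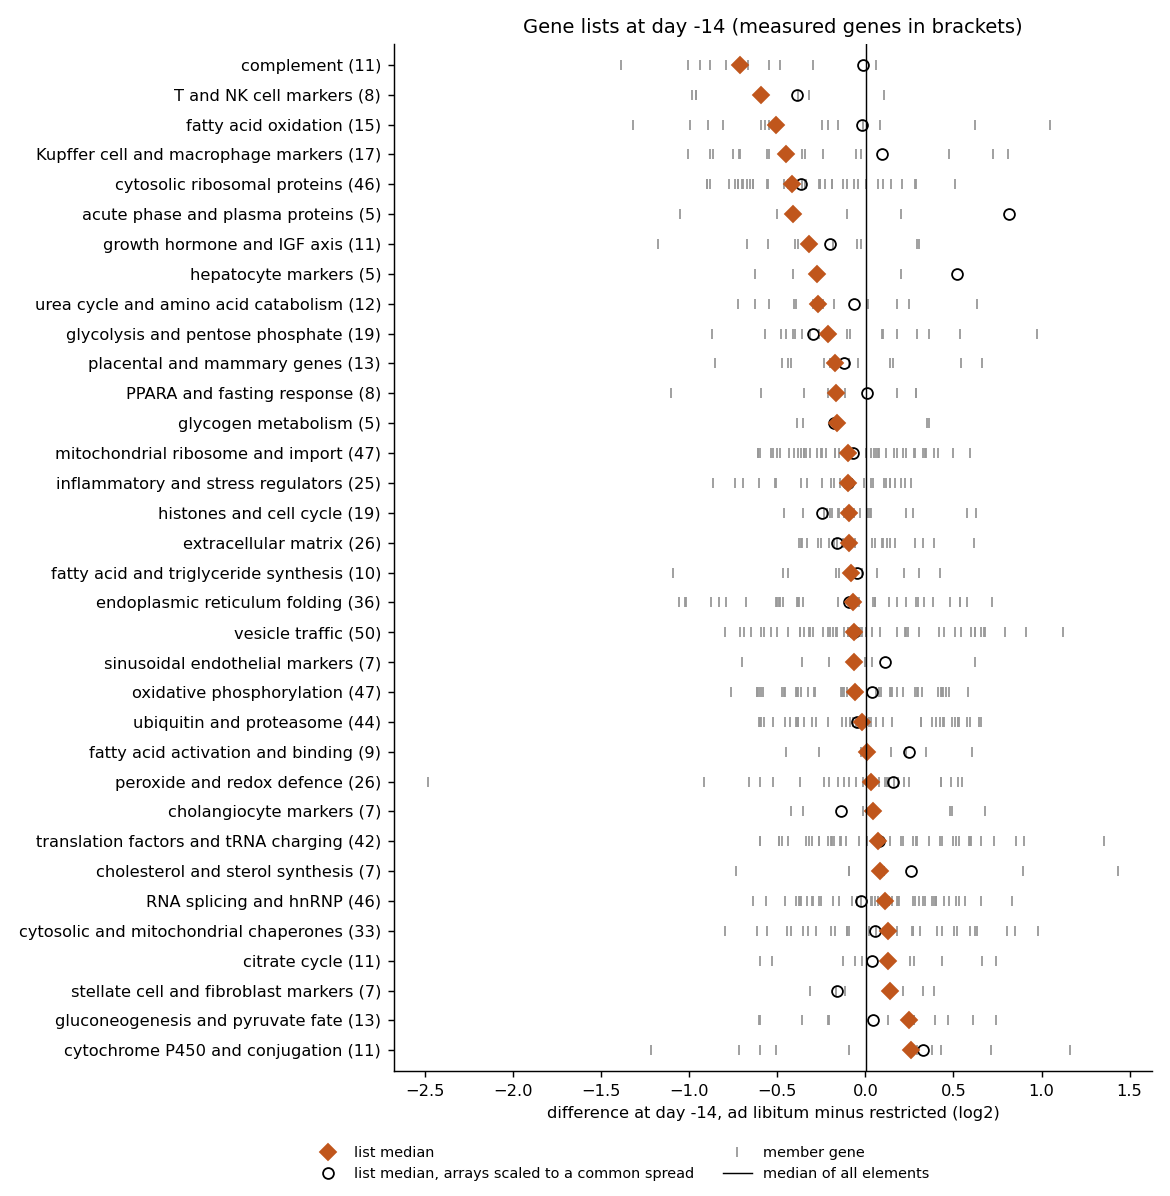
Differences between the diets at day -14 for 34 gene lists. The x axis is ad libitum minus restricted on the log2 scale; diamonds are list medians, ticks are member genes, the line is the median of all elements, and open circles are the list medians after each array was scaled to a common spread. Complement is lowest at -0.71 and moves to -0.01 with scaling, whereas T and NK cell markers stay at -0.39.

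Complement, the cascade of plasma proteins that tags microbes and antibody complexes, lay lower in ad libitum cows in 10 of 11 measured genes, and the exception was CD59 (0.06), a membrane inhibitor. C4A, a form of the fourth component, was at 1.67, 1.88, 2.67 and 2.43 in ad libitum cows, against 2.85, 4.20, 3.84 and 3.32 in restricted cows, so that the groups did not overlap. Its difference of -1.39 ± 0.34 (SE) was the largest of the list and passed in the fit of all days (adjusted p = 0.00201). It was the single member to do so, 1 of 11, where 5.01% of all elements passed as lower. C1QA, a chain of the first component that macrophages make, was at 3.09, 2.96, 4.05 and 3.38 in ad libitum cows, against 4.69, 4.36, 4.26 and 4.19 in restricted cows.

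SERPING1, the inhibitor that shuts off C1, was at 1.93, 1.91, 2.53 and 1.93 in ad libitum cows, against 3.28, 2.69, 3.45 and 2.66 in restricted cows. The protease C1R was at 5.02, 5.01, 5.12 and 5.18 in ad libitum cows, against 5.09, 6.22, 6.31 and 5.57 in restricted cows, and here restricted cow 6877 lay among the ad libitum cows. In 3 of 11 genes there was no overlap between the diets, against 5.22% of all elements. At day -30 the median of the list was -0.22, and at day -65 it was 0.41. The list depended on the scale of the arrays: its median was -0.01 after scaling to a common spread and -0.30 after quantile normalization of the cow values, a setting chosen after seeing the data.

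Other plasma proteins were thinly covered, with 5 measured genes and a median difference of -0.41. Relative to the median of all elements, the list median was 0.81 after scaling, which turned its direction. RARRES2, which encodes the secreted adipokine chemerin, was at 4.07, 4.13, 4.79 and 5.04 in ad libitum cows, against 5.15, 5.99, 5.70 and 5.40 in restricted cows, a difference of -1.05 ± 0.29 (SE, 0.023 for the adjusted p in the fit of all days), without overlap. It was -0.64 at day -30 as well, and 0.04 after scaling at day -14. In the fit of all days 1 of the 5 genes passed as lower, where 5.01% of all elements did. The serpin SERPINA3-3 was at 6.68, 6.66, 6.63 and 6.55 in ad libitum cows, against 6.26, 7.49, 7.79 and 7.0 in restricted cows, and RBP4, the retinol carrier, at 5.52, 5.61, 5.83 and 5.91 in ad libitum cows, against 5.55, 6.59, 6.55 and 5.82 in restricted cows. TF, the iron carrier transferrin, differed by 0.20 ± 0.32 (SE). For the last 3 genes the diets overlapped.

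The hepatocyte identity of the tissue was plain: the 5 measured hepatocyte markers averaged 2.85 to 3.12 in ad libitum and 3.04 to 3.54 in restricted cows on the log2 scale. Their median difference was -0.28, with 4 of 5 below 0, and it was 0.52 after scaling, so its direction was not settled. SLC10A1, the bile acid uptake carrier, was at 4.04, 3.88, 4.34 and 4.26 in ad libitum cows, against 4.12, 4.38, 5.01 and 4.08 in restricted cows. The part of this in the differences of other genes of hepatocytes was not tested. In whole liver, fewer cells of a type and less RNA per cell cannot be told apart.

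T and NK cell markers lay lower in ad libitum cows in 7 of 8 measured genes, the exception being GNLY (0.11), which encodes a cytotoxic granule protein. CD3D, a second chain of the T cell receptor complex, was at 1.29, 1.21, 1.18 and 0.98 in ad libitum cows, against 1.74, 1.82, 2.60 and 2.34 in restricted cows, without overlap, as for CD3E above. PRF1, the pore-forming protein perforin, was at -0.15, 0.85, 1.32 and 0.65 in ad libitum cows, against 1.19, 1.92, 1.56 and 1.85 in restricted cows, where the diets overlapped, and a second element differed by -0.24. CCL5, a chemokine of activated T cells, differed by -0.61 ± 0.26 (SE). In the fit of all days 3 of the 8 passed as lower (5.01% of all elements did): CD3D (0.0287), CD3E (0.00721) and PRF1 (0.0232), given here as adjusted p. The mean level of the list was 0.41 to 0.62 in ad libitum and 0.75 to 1.40 in restricted cows. The median difference was -0.39 after scaling and -0.72 without restricted cow 6877. It was below the median of all elements under each of the 20 settings. Every setting draws on the same cow values, so that count is not separate support. Complement and fatty acid oxidation also lay below in all 20. After scaling these 2 lists were at just -0.02 and -0.03 relative to the median of all elements. The size of the T and NK list median depended on the dye orientation. Relative to the median of all elements it was -0.997 with the liver in Cy5 alone and -0.353 with the liver in Cy3 alone.

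Markers of Kupffer cells and other macrophages lay lower in 14 of 17 genes, of which 3 encode C1Q chains that the complement list also holds. CD14, the coreceptor for bacterial lipopolysaccharide, was at 1.66, 2.21, 2.06 and 1.96 in ad libitum cows, against 2.77, 2.49, 2.83 and 2.82 in restricted cows, and its other element differed by -1.05. CD74, the invariant chain of MHC class II, was at 0.68, -0.04, 0.96 and 0.79 in ad libitum cows, against 1.59, 1.89, 1.10 and 1.27 in restricted cows. CTSB, the lysosomal protease cathepsin B, differed by -0.71 ± 0.25 (SE) and alone of this list passed in the fit of all days (adjusted p = 0.0326). That is 1 of 17, near the 5.01% of all elements that passed as lower. Its other elements differed by -0.68 and -0.23, both with overlap. In 4 genes the diets did not overlap, against 5.22% of all elements. CTSS (0.81), MSR1 (0.72) and CD163 (0.48) lay on the other side. The scaled list median was 0.09, which turned its direction, and at day -30 the median was 0.01. The mean level per cow was 1.55 to 2.27 in ad libitum and 2.09 to 2.29 in restricted cows and overlapped.

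Just 2 markers of B and plasma cells were measured. The plasma cell chaperone MZB1 was at 0.50, 0.18, -0.04 and -0.45 in ad libitum cows, against 0.21, 0.87, 0.53 and 1.32 in restricted cows, and the antibody heavy chain IGHM at -0.62, -0.12, 0.30 and 0.01 in ad libitum cows, against -0.36, 1.20, 1.17 and 0.99 in restricted cows, each with overlap. Among 7 sinusoidal endothelial markers ENG, a coreceptor for TGF-beta family ligands, was at 0.88, 0.50, 1.01 and 1.19 in ad libitum cows, against 1.48, 1.73, 1.5 and 1.68 in restricted cows, without overlap (0.0326 for the adjusted p in the fit of all days). FLT1 and KDR, both receptors for VEGF, differed by 0.62 ± 0.26 (SE) and -0.36 ± 0.28 (SE), and CDH5, the cadherin of endothelial junctions, by -0.21 ± 0.22 (SE). The other KDR element differed by 0.08. The median of the list was -0.06, and without restricted cow 6877 it was 0.049. After scaling it was 0.10 relative to the median of all elements. In the fit of all days 1 of the 7 markers passed as lower, where 5.01% of all elements did.

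**Figure D4:**
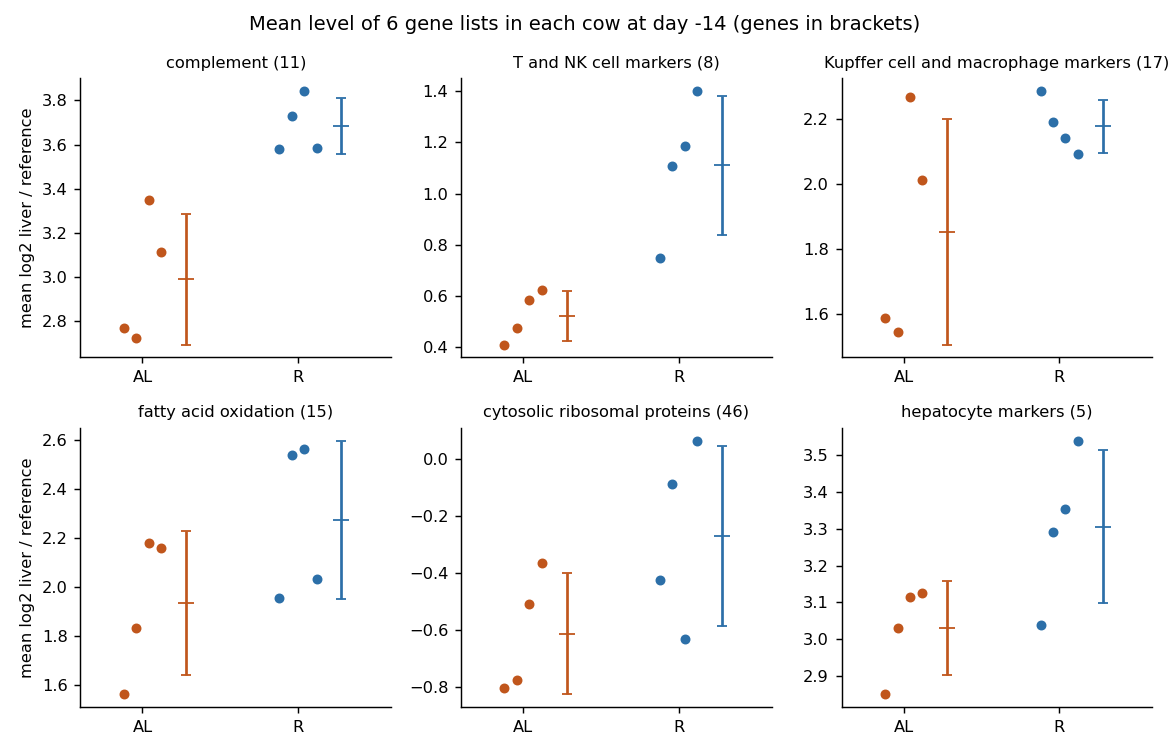
Mean log2 ratio of liver over reference of 6 gene lists in each cow at day -14 (AL, ad libitum, left; R, restricted, right; points are cows, bars mean ± SD of 4 cows). The diets do not overlap for complement (2.72 to 3.35 in ad libitum, 3.58 to 3.84 in restricted cows) or for T and NK cell markers (0.41 to 0.62 in ad libitum, 0.75 to 1.40 in restricted cows), and they overlap for the other 4 lists shown. The 6 lists were chosen after the values were seen. Urea cycle and amino acid catabolism, not shown, did not overlap either (0.32 to 0.66 in ad libitum, 0.68 to 0.76 in restricted cows).

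Genes of fatty acid oxidation, which shorten fatty acids in mitochondria and peroxisomes, lay lower in ad libitum cows in 12 of 15 measured cases. ACADVL, the dehydrogenase that opens the mitochondrial cycle for long chains, was at 2.13, 1.69, 2.35 and 2.16 in ad libitum cows, against 3.0, 2.87, 2.79 and 2.90 in restricted cows. Its restricted cows lay close together and well above the others. ACAA1, the peroxisomal thiolase, was at 2.29, 2.78, 3.45 and 3.44 in ad libitum cows, against 3.66, 4.92, 4.68 and 3.96 in restricted cows, with a second element at -0.41. ETFB, a subunit of the flavoprotein that passes electrons to the respiratory chain, was at 1.06, 0.72, 1.27 and 1.45 in ad libitum cows, against 1.96, 2.08, 1.71 and 2.32 in restricted cows.

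ECI2, an isomerase needed for unsaturated fatty acids, was at 1.87, 2.15, 2.81 and 2.62 in ad libitum cows, against 2.89, 3.56, 3.66 and 3.34 in restricted cows, but its second element differed by 0.75, the opposite sign. These 4 genes passed as lower in the fit of all days, where 5.01% of all elements did, with adjusted p of 0.0103 for ETFB, 0.0149 for ACADVL, 0.00739 for ACAA1 and 0.00969 for ECI2. In 6 of the 15 genes every ad libitum cow lay below every restricted cow, against 5.22% of all elements. SCP2 (1.05), ETFA (0.62) and ETFDH (0.08) lay on the other side. The median of the list was 0.04 at day -30 and 0.15 at day -65. After scaling it was -0.02, so the difference of the list was not independent of the scale of the arrays.

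CPT1A admits long-chain fatty acids to the mitochondrion. On this array it had 2 elements that did not match: one was at 1.51, 1.26, 1.89 and 1.77 in ad libitum cows, against 2.25, 2.37, 2.02 and 2.17 in restricted cows, without overlap, and the other at 2.21, 1.86, 2.60 and 2.53 in ad libitum cows, against 2.30, 2.73, 2.42 and 2.09 in restricted cows, with overlap. ACSL1, which activates fatty acids for oxidation or esterification, was at 3.0, 2.73, 3.42 and 2.60 in ad libitum cows, against 2.99, 3.86, 3.79 and 2.16 in restricted cows. SREBF1, which switches on fatty acid synthesis, varied widely among restricted cows, at 0.09, 0.52, -0.03 and -0.71 in ad libitum cows, against -0.79, 2.77, 0.33 and 1.92 in restricted cows. None of the 4 elements passed in the fit of all days. Of 10 genes of fatty acid and triglyceride synthesis 6 lay below 0 (median -0.08), and of 9 genes of fatty acid activation and binding 3 did (median 0.01, and -0.085 without restricted cow 6877).

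Cholesterol synthesis was covered by 7 genes. Besides IDI1, MSMO1, a sterol C4 demethylase, was at 1.99, 2.79, 3.58 and 2.89 in ad libitum cows, against 0.99, 2.64, 2.83 and 1.20 in restricted cows, with overlap. EBP, a sterol isomerase, differed by -0.74 ± 0.31 (SE), and ACAT2, which makes acetoacetyl-CoA, by 0.10 ± 0.23 (SE). The list median was 0.08, and -0.11 without restricted cow 6877.

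Gluconeogenesis draws on pyruvate, propionate and amino acids in ruminant liver, and its first step from pyruvate is catalysed by PC. PC was at 0.44, -0.10, -0.07 and -0.21 in ad libitum cows, against 0.74, 0.98, 0.35 and 0.41 in restricted cows, and the ad libitum cow 6886 lay within the restricted range. Its difference was -0.60 ± 0.23 (SE, adjusted p = 0.449, and 0.0528 in the fit of all days), against -0.11 at day -30 and 0.78 at day -65. MDH2, the mitochondrial malate dehydrogenase, differed by -0.60 ± 0.25 (SE). SUCLG2, a subunit of succinyl-CoA synthetase, and LDHA, lactate dehydrogenase A, differed by 0.74 ± 0.35 (SE) and 0.61 ± 0.30 (SE), and the diets overlapped for both. In all, 8 of 13 genes of this list lay above 0, but none passed in either fit.

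Glycolytic genes went both ways. PKM, the muscle-type pyruvate kinase, was at -1.27, -1.16, -1.52 and -1.70 in ad libitum cows, against -1.76, -3.03, -2.41 and -2.34 in restricted cows, all ad libitum cows above all restricted cows. GAPDH was at -1.87, -1.92, -1.08 and -0.88 in ad libitum cows, against -0.80, -0.29, -0.54 and -0.63 in restricted cows, with the reverse order. In the fit of all days PKM passed as higher (0.00721), PGK1, phosphoglycerate kinase, as higher (0.022), and GAPDH as lower (0.0423), each value an adjusted p. That is 2 of 19 as higher and 1 of 19 as lower, where 0.902% and 5.01% of all elements passed. ENO1, enolase, differed by -0.57 ± 0.25 (SE). The median over 19 genes was -0.21, and -0.39 without restricted cow 6877.

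Nitrogen metabolism was represented by 12 genes of the urea cycle and amino acid catabolism. ASL, the lyase that releases arginine in the urea cycle, was at -0.31, -0.31, -0.14 and -0.23 in ad libitum cows, against 0.31, 0.78, 0.34 and 0.48 in restricted cows. Its ad libitum cows lay within a narrow range and below every restricted cow, and it passed in the fit of all days (adjusted p = 0.00201). That is 1 of 12, where 5.01% of all elements passed as lower. ASS1, the preceding enzyme, was at 0.15, 0.20, 0.76 and 1.12 in ad libitum cows, against 1.02, 1.15, 0.90 and 1.68 in restricted cows, with overlap. SHMT2, which interconverts serine and glycine, differed by -0.55 ± 0.22 (SE) without overlap, and HIBCH, of valine breakdown, by 0.63 ± 0.38 (SE). The list had 8 of 12 genes below 0 and a median of -0.27, which was -0.07 after scaling.

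Of 47 genes of oxidative phosphorylation 27 lay below 0, close to an even split, with a median of -0.06. UQCRC1 and UQCR11, subunits of complex III, differed by -0.62 ± 0.20 (SE) and -0.77 ± 0.27 (SE), COX4I1 of complex IV by -0.59 ± 0.21 (SE) and ATP5F1D of the ATP synthase by -0.58 ± 0.22 (SE). The first 3 passed in the fit of all days, 3 of 47 as lower, which is near the 5.01% of all elements.

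The machinery that folds secreted proteins in the endoplasmic reticulum had single genes with large differences, although its median over 36 genes was -0.07. Without restricted cow 6877 that median was 0.081. P4HB, protein disulphide isomerase, was at 0.27, 0.34, 0.94 and 1.06 in ad libitum cows, against 2.25, 1.38, 1.31 and 1.76 in restricted cows, without overlap. SSR4 and SSR2, subunits of the translocon-associated complex, differed by -1.02 ± 0.28 (SE) and -0.88 ± 0.27 (SE). In the fit of all days 6 of 36 members passed, all lower (5.01% of all elements did): DDOST, P4HB, QSOX1, SSR2, SSR3 and SSR4. DDOST, of the complex that attaches N-linked sugars, differed by -0.79 and SSR3 by -0.68, and both were chosen after their values were seen.

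In the growth hormone and IGF axis, which couples nutrition to growth, 9 of 11 genes lay below 0 (median -0.32). IGFBP3, the main carrier of circulating IGF-I, was at 3.03, 2.64, 2.93 and 3.01 in ad libitum cows, against 3.45, 5.12, 4.09 and 3.67 in restricted cows, without overlap (0.0145 for the adjusted p in the fit of all days). Its 3 elements differed by -1.18 ± 0.34 (SE), -0.71 and 0.20. In the fit of all days 1 of the 11 genes passed as lower, where 5.01% of all elements did. AKT1 and AKT2, kinases of insulin and IGF signalling, differed by -0.39 ± 0.20 (SE) and -0.67 ± 0.37 (SE), and GRB10, an adaptor that dampens both receptors, by -0.55 ± 0.36 (SE).

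STAT3, the transcription factor of the interleukin 6 response in liver, was at 1.01, 0.69, 1.31 and 0.98 in ad libitum cows, against 1.61, 1.80, 1.79 and 1.77 in restricted cows, with every ad libitum cow below every restricted cow. JUNB, an AP-1 factor, was at -0.87, -0.90, -0.93 and -0.51 in ad libitum cows, against 0.27, 0.02, -0.39 and 0.36 in restricted cows, and CEBPD, an acute phase activator, at 0.06, -0.13, 0.70 and 0.53 in ad libitum cows, against 0.84, 1.13, 0.90 and 1.08 in restricted cows. A second JUNB element differed by -0.20, and a second CEBPD element by 0.22. CIRBP, a cold- and stress-responsive RNA-binding protein, differed by -0.51 ± 0.23 (SE). Of 25 inflammatory and stress regulators 15 lay below 0 (median -0.10), and JUNB and CIRBP passed as lower in the fit of all days, 2 of 25 against 5.01% of all elements.

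Cytosolic ribosomal protein genes lay mostly lower, with 38 of 46 measured genes below 0 and a median of -0.41. RPS2 was at -0.91, -1.13, -1.03 and -0.47 in ad libitum cows, against 0.25, 0.01, -0.47 and 0.25 in restricted cows, where the closest cows of the diets lay within rounding of each other. RPL8 was at -1.33, -1.65, -1.09 and -0.81 in ad libitum cows, against -0.21, -0.16, -0.74 and -0.17 in restricted cows. A second RPL8 element differed by -0.44, with overlap. RPLP1, of the ribosomal stalk, was at -0.49, -0.69, -0.11 and -0.23 in ad libitum cows, against 0.21, 0.64, 0.02 and 0.58 in restricted cows, and RPL7A differed by -0.88 ± 0.27 (SE). In the element that represents the gene, none of these 4 had an overlap between the diets. All 4 passed in the fit of all days, as did 9 of 46 in total, all lower (5.01% of all elements passed as lower). In 6 of 45 genes with complete values the diets did not overlap, against 5.22% of all elements. The median was -0.23 at day -30, -0.36 after scaling and -0.18 with array weights. Under each of the 20 settings it lay below that of all elements, but every setting draws on the same cow values. That count is therefore not separate support, and the complement list shared it. Ribosomal protein genes have many processed pseudogenes, and closely related transcripts may share a cDNA element.

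RNA splicing genes ran the other way, with 29 of 46 above 0 and a median of 0.11, but it was -0.02 after scaling. At day -30 the median was 0.11 as well. SF3B1, a core subunit of the U2 particle, was at 0.07, -0.38, -0.09 and -0.18 in ad libitum cows, against -0.54, -1.33, -0.55 and -1.48 in restricted cows, without overlap, while its 2 other elements differed by 0.35 and 0.23, with overlap. SF3B6 of the same complex differed by 0.56 ± 0.20 (SE). DDX39B, an mRNA export helicase, and PTBP1, a splicing repressor, differed by -0.64 ± 0.23 (SE) and -0.56 ± 0.25 (SE), and these 2 of 46 passed as lower in the fit of all days, against 5.01% of all elements. A second DDX39B element differed by 0.016.

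Day -14 was set beside the 2 earlier samplings of the same cows. At day -30, 0 elements passed (0% called) and 602 had an unadjusted p under 0.05 (7.33% called). At day -65, with 3 ad libitum and 4 restricted cows, 0 passed (0% called) and 332 had an unadjusted p under 0.05 (4.04% called). The change of each cow between samplings was then compared between the diets. For the change from day -30, 0 of 8208 elements passed (0% called) and 525 had an unadjusted p under 0.05 (6.4% called). For the change from day -65, 0 of 8207 passed (0% called) and 635 had an unadjusted p under 0.05 (7.74% called). In the fit of all days with cow as a block, 108 elements passed for the change from day -65 (1.32% called) and 0 for the other 3 comparisons. The day -14 samples enter both change comparisons and the diet comparison itself.

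Of the 83 elements named by rule, 63 had the same sign of difference at day -30 as at day -14. At day -30, 13 of them had an unadjusted p under 0.05, where 7.33% of all elements did. All 13 had the sign of day -14, and the smallest adjusted p was 0.560. The share of all elements that kept their sign was not computed, so these counts of signs have no baseline and are not read as particular to the named genes. Among these were ACAA1 (-0.44), SERPING1 (-0.59), QSOX1 (-0.41), CD3E (-0.31) and ETFB (-0.31), as well as LDHA (0.55). Other genes had closer means on both diets at day -30. ACADVL averaged 2.06 ± 0.19 in ad libitum and 2.05 ± 0.24 in restricted cows at day -30, and 2.08 ± 0.28 in ad libitum and 2.89 ± 0.09 in restricted cows at day -14 (SD, n = 4). ASL averaged -0.27 ± 0.17 in ad libitum and -0.47 ± 0.19 in restricted cows at day -30, and -0.25 ± 0.08 in ad libitum and 0.48 ± 0.21 in restricted cows at day -14. In both genes the mean of the restricted cows was higher at day -14 than at day -30, and that of the ad libitum cows lay within 1 SD of its day -30 value. PKM was at -2.58 ± 0.23 in ad libitum and -2.53 ± 0.20 in restricted cows at day -30, and -1.41 ± 0.24 in ad libitum and -2.39 ± 0.52 in restricted cows at day -14. C4A averaged 2.63 ± 0.13 in ad libitum and 2.86 ± 0.14 in restricted cows at day -30, and 2.17 ± 0.47 in ad libitum and 3.55 ± 0.59 in restricted cows at day -14. By the change of each cow, none of the 83 elements passed for the change from day -30 (smallest adjusted p = 0.769) or from day -65 (smallest adjusted p = 0.628). In the fit of all days none passed for the change from day -30 (smallest adjusted p = 0.0600). For the change from day -65, 10 of the 83 passed in that fit, and 1.32% of all elements did: BOD1L1 and PCLAF with a positive difference, and PAG12, EFNA1, CTDSP2, SLX1A, PC, C4A, P4HB and ACADVL with a negative one. Most of the 83 were chosen by their day -14 values, which enter this change.

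**Figure D5:**
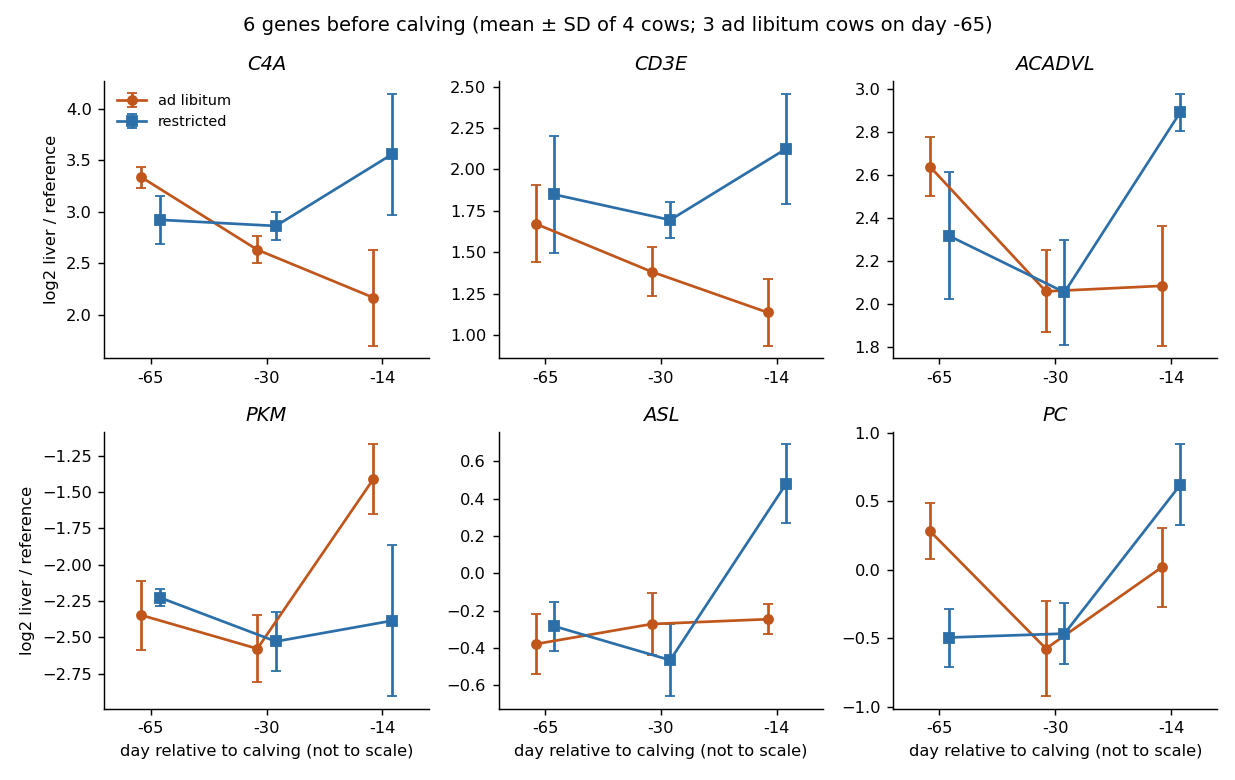
Log2 ratio of liver over reference of 6 genes on days -65, -30 and -14 relative to calving (circles, ad libitum; squares, restricted; mean ± SD of 4 cows, 3 ad libitum cows on day -65). At day -30 the means of C4A, CD3E, ACADVL, PKM, ASL and PC differ by at most 0.31, and at day -14 by 0.60 to 1.39, with ad libitum above restricted cows for PKM only among these 6. At day -65 the differences are 0.78 for PC, 0.41 for C4A and 0.32 for ACADVL, opposite in sign to day -14. They are -0.18 for CD3E, -0.12 for PKM and -0.10 for ASL on that day.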

How the data were processed

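The values deposited by the authors are log2 ratios (Cy5 over Cy3), 1 for each of 16416 spots per array, on 106 arrays. Per the series' design text, slides were read on a Scanarray 4000 scanner and images processed with GenePix 4.0, while no step of background correction or normalization is named in the sources used here. The log2 scale was taken from the values. The medians of single arrays ran from -1.69 to 1.80, which shows that no centring had been applied.

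Groups, cows and days came from the labels. Ratios were turned so that liver stood over reference, the 2 spots of an element averaged, each array centred on its median and both dye orientations of a cow averaged, which gave 1 value per cow. A value was missing for 114 to 730 spots per array on day -14. The 8208 elements are more than the 7872 that the design text states. An element needed values in 2 cows of each diet. The fits were made in R 4.3.3 (limma 3.58.1, statmod 1.5.0), with a moderated two-sided test with Benjamini-Hochberg adjustment over all elements and a threshold of 0.05, and were tested on simulated data. No covariate was used.

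The cow number pairs samples across days, because it names the same animal, and no cow had both diets. The fit of all days with cow as a random block gave a correlation within cows of 0.0169.

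Gene names came from the platform annotation, with 1 symbol for 5598 elements, several for 95 and none listed for 2515. RefSeq gene identifiers of ARS-UCD2.0 matched 5591 of them. A gene with several elements was represented in lists by the element with the fewest missing arrays and then the closest agreement of its orientations. Named genes followed this rule: since fewer than 5 elements passed, the 8 in each direction with the smallest p, up to 4 members with the smallest p of each list described (18 of 40 lists), and PC, CPT1A, ACSL1 and SREBF1 whatever their result. Genes named as exceptions to a list's direction were chosen after their values were seen, as were the 18 lists. The comparison and the gene lists were chosen with earlier results of these data known, and no list was tested as a set. Alternatives were other centring and scaling, single dye orientations, other filters, weights, a covariate, the block and each cow left out in turn.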

Additional observations from a re-analysis of the deposited data

Results flagged for a closer look

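Among 174 groups of 4 cows examined for the named genes and the array measures at day -14, 5 held a cow far from the other 3, judged by Dixon's criterion for 4 values. Chance alone flags about 1 group in 20, which is more than the number found, and no explanation was weighed. In ad libitum cows, SERPING1 was at 2.53 in cow 7161, above the other 3, and JUNB was at -0.51 in cow 7187, also above. In restricted cows, QSOX1 was at 1.02 in cow 7105, IGHM at -0.36 in cow 6877 and RPL8 at -0.74 in cow 7045, each below the other 3. By the change of each cow, no named gene differed between the diets in its change from day -30 or day -65 (limma with Benjamini-Hochberg adjustment). In the fit of all days 10 of 83 named elements passed for the change from day -65, where 1.32% of all elements did.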

How the results depend on the processing

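Leaving out 1 cow at a time gave 469 to 1844 elements with an unadjusted p under 0.05 at day -14, against 839 with all cows, and 0 passed after adjustment each time. The fit of all days with cow as a replicate block called 485 elements at day -14, had 1905 with an unadjusted p under 0.05, and called 108 for the change from day -65. It changed no other count of calls, and 42 of the 83 named elements passed in it at day -14. Of all elements, 5.01% passed there as lower and 0.902% as higher. Most of the 83 were chosen by their day -14 values, which enter this fit, so that count is not separate support. With the liver in Cy3 alone 1 element passed at day -30, and the cause was not tested. All other settings called 0 elements in each comparison they were run on. Quantile normalization of the cow values and the covariate were run at day -14 only, and cow 7050 had no day -65 sample to leave out. The number at an unadjusted p under 0.05 was otherwise between 563 and 957 at day -14.

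Of 1660 values of named elements under the alternatives, 25 changed sign, and the cause was not tested. After scaling the arrays these were CPT1A at 0.37, ACSL1 at 0.33, RARRES2 at 0.035, SERPINA3-3 at 0.81, RBP4 at 0.77, EBP at 0.011, C1R at 0.38, SLC10A1 at 0.52 and KDR at 0.11. Quantile normalization of the arrays put CPT1A at 0.17, ACSL1 at 0.11, RBP4 at 0.10 and SLC10A1 at 0.16. Quantile normalization of the cow values, chosen after seeing the data, put CPT1A at 0.31, ACSL1 at 0.20, SLC10A1 at 0.21 and KDR at 0.072. Without centring TF was at -0.036 and ACAT2 at -0.13, and with the liver in Cy3 alone TF was at -0.016 and SLC10A1 at 0.000125. With single cows left out, CPT1A ran from -0.19 to 0.056, TF from -0.098 to 0.41 and ACAT2 from -0.016 to 0.26. The sign of CPT1A changed without cow 6952 or 7050, that of TF without 6877 and that of ACAT2 without 7161. The CPT1A values are those of the element with a difference of -0.09 in the report.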
